A study of Homo sapiens with 8 samples.

Results

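The genes described here are the well-expressed human ZNF genes, selected by 2 properties of the deposited tables. A gene was included if it was protein-coding with a symbol of ZNF followed by a number, and if its mean signal over all 8 libraries was 10 or more. The rule chose 175 of the 389 protein-coding ZNF genes listed, which belong to 17912 genes in all. The mean signal was the only measured value in the rule, and it weighs both treatments alike. The gene set was chosen with earlier results of these data known. Of the 175 genes, 7 had a mean below 10 in DMSO alone and 8 had a mean below 10 in SF153 alone. RNA was sequenced from the cell line NKM-1, a wildtype human line from a myeloid leukemia. Cells received SF153 at 30 uM or DMSO, the solvent control, for 48 h. SF153 is an inhibitor of splicing factors that carry a U2AF homology motif, and the study asked how it acts on leukemia cells. Each treatment had 4 libraries, 2 from batch 1 and 2 from batch 2, and each is named by its batch and then its number, as in SF153 2.1. The labels do not say that the 2 libraries of a treatment and batch came from separate cultures, so p-values reflect a spread between libraries that may be only technical.

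ZNF proteins are mostly C2H2 zinc finger proteins, in which pairs of cysteines and histidines hold a zinc ion and each finger contacts a short stretch of DNA or RNA. The largest subfamily also carries a KRAB box, a short domain that binds TRIM28. TRIM28 in turn brings in SETDB1, HP1 proteins and histone deacetylases, and this machinery is best known for silencing transposable elements. Many KRAB zinc finger genes arose by tandem duplication and lie in clusters on chromosome 19. Other ZNF proteins lack the KRAB box and act in ribosome maturation, spindle assembly, RNA binding or promoter activation.

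The values are a signal per gene under file labels that name both CPM and TPM, and how the libraries were scaled to each other was not stated in the sources used here. Orders of level between genes below hold only if the signal is per length, as TPM is. The values summed to between 828381 and 1027119 per library, and the read depth is unknown. Genes encoded by the mitochondrial genome took 9.17% to 9.92% of the summed signal in SF153 1.1 and 1.2, 16.8% in both SF153 2.1 and 2.2, and 9.38% to 9.63% in DMSO. RN7SK, an abundant noncoding nuclear RNA, took 18.2% and 18.7% in the batch 1 SF153 libraries and 11.4% to 13.9% in the other 6 libraries. The part of these shifts in the results below was tested only through the settings given with them. Of 14 myeloid markers, 10 had a mean signal of 10 or more. They moved both ways. MPO was lower, at 740 ± 22.4 in DMSO and 470 ± 57.3 in SF153 (SD, n = 4 each). CEBPA, LYZ and CSF1R were also lower, with log2 differences (SF153 minus DMSO) of -0.76, -0.98 and -0.49. CD33 at 74.2 ± 7.07 and 98.5 ± 8.32 and ITGAM at 31.2 ± 4.76 and 41.9 ± 4.22 were higher. All of these passed the test described below. SPI1 at 74.2 ± 2.70 and 66.2 ± 3.01 did not pass, nor did PTPRC, CSF3R and FCGR1A. The B cell markers CD79A and CD79B had a summed signal of 75.9 to 86.0 in DMSO and 18.3 to 45.1 in SF153, and MS4A1 was not analysed here.

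Promoter sequences were compared first, because they are a feature that the selection did not use. RefSeq sequences on GRCh38.p14 were matched for 153 of the 175 genes, and the 250 bases before the RefSeq start were searched on both strands. CCAAT (reverse complement ATTGG), the letters of the CCAAT box, occurred in 63.5% of the 96 matched promoters of genes that encode a KRAB box and in 22.8% of the 57 without one. The share was 36.3% over 6306 promoters of protein-coding genes with a mean signal of 10 or more, and 33.0% over all 27305 promoters of the same length. Promoters of duplicated genes can be near copies, as are long stretches of those of ZNF107 and ZNF431. Matches in KRAB promoters are thus not independent of each other. CCGGAAG (reverse CTTCCGG), the core bound by ETS factors, occurred in 39.6% of KRAB promoters, 22.8% of those without the box, 19.1% at a mean of 10 or more and 8.82% of all. CCAAT and CCGGAAG cannot overlap each other, while the 3 motifs that follow can share end bases with others of the set. GGGCGG (reverse CCGCCC), the GC box, occurred in 59.4% of KRAB promoters and 63.2% of the rest of the ZNF promoters, against 68.1% and 42.3% in those background sets. AAGATGG (reverse CCATCTT), the YY1 core, was in 4.17% and 5.26%, against 3.74% and 3.77%. TATAAA (reverse TTTATA), the TATA box, was in 8.33% and 1.75%, against 5.65% and 11.1%. By response, CCAAT was present in 47.2% of 36 promoters of genes called higher and 33.3% of 15 called lower, and CCGGAAG in 33.3% and 20%. Over all 153 matched ZNF promoters the shares were 48.4% for CCAAT and 33.3% for CCGGAAG, so the genes called higher were close to the whole set. Of the 43 genes called higher, 33 encode a KRAB box, the class in which the CCAAT share was 63.5%. Shares by response within each class are not given here. The 5 promoters below belong to 3 KRAB genes that were higher and 2 genes without the box that were lower in SF153. They were picked after their matches were seen, to show windows with both motifs and with neither. They run 5′ to 3′ on the strand of the gene, in lower case with CCAAT and CCGGAAG matches in capitals.
ZNF846: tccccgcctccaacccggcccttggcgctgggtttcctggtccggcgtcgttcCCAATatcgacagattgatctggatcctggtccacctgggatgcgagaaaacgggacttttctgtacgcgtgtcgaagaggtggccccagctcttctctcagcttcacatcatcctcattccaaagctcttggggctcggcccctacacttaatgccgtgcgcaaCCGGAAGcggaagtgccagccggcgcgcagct
ZNF548: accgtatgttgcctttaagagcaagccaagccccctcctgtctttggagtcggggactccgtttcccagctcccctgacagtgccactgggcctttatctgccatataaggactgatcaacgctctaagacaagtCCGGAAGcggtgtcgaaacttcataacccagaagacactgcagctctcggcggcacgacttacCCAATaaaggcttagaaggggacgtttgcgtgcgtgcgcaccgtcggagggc
ZNF460: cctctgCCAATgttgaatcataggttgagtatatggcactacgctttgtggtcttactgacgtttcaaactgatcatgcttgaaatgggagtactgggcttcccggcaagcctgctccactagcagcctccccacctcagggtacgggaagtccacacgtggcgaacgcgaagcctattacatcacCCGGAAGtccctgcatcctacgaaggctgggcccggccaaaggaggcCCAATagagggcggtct
ZNF593: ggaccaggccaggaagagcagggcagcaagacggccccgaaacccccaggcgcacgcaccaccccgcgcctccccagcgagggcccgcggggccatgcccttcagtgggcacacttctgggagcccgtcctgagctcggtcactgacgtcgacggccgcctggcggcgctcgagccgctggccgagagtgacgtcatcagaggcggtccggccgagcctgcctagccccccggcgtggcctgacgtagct
ZNF511: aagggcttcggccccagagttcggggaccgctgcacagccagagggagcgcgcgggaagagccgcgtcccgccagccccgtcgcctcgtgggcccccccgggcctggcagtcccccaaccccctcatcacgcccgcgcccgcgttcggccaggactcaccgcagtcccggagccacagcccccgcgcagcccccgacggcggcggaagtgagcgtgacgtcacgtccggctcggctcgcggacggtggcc
The first is chr19:9768739-9768988 (minus strand), the second chr19:57389604-57389853 (plus strand), the third chr19:57279732-57279981 (plus strand), then chr1:26169658-26169907 (plus strand) and chr10:133308664-133308913 (plus strand). The ZNF846 promoter held 1 match of each motif, as did that of ZNF548, and the ZNF460 promoter held 1 CCGGAAG and 2 CCAAT. Neither motif was found in the windows of ZNF593 and ZNF511. Other genes of each direction went differently: ZNF577 and ZNF589, which were higher, held neither motif, and of the genes that were lower ZNF770 held a CCAAT and ZNF622 a CCGGAAG. The RefSeq start used here lay more than 250 bases from the outer end of the gene in GENCODE for 41 of the 153 genes, among them ZNF846 at 24442 bases inside the gene and ZNF511 at 439. A match describes letters only.

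After SF153, 43 of the 175 ZNF genes were higher and 16 were lower, and 116 did not pass the test (limma on log2(signal + 1), Benjamini-Hochberg adjusted p under 0.05 over all genes tested). Over the 15542 genes tested, 13.0% were called higher and 24.3% lower. Among the 7643 protein-coding genes with a mean signal of 10 or more, the shares were 12.5% and 37.7%. The ZNF genes were called higher in 24.6% and lower in 9.14% of cases. Their median log2 difference (SF153 minus DMSO) was 0.15, against -0.03 for all genes tested and -0.17 for protein-coding genes at the same mean. Individual differences ran from -1.20 to 0.72. In 44 genes every SF153 library lay above every DMSO library, and in 16 every SF153 library lay below, where 13.2% and 23.6% of all genes tested did so. The changes were modest: the ratio of group means reached 1.5 or more in 6 genes and fell to its inverse or less in 8. Since the selection needed a mean of 10 over both treatments, some called genes reached it only through the treatment where they are high: of the 43 higher, ZNF274 alone was below 10 in DMSO, and of the 16 lower, 6 were below 10 in SF153 (ZNF184, ZNF639, ZNF428, ZNF593, ZNF770 and ZNF511). In bulk RNA, fewer cells that express a gene and less RNA per cell cannot be told apart.

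**Figure D1:**
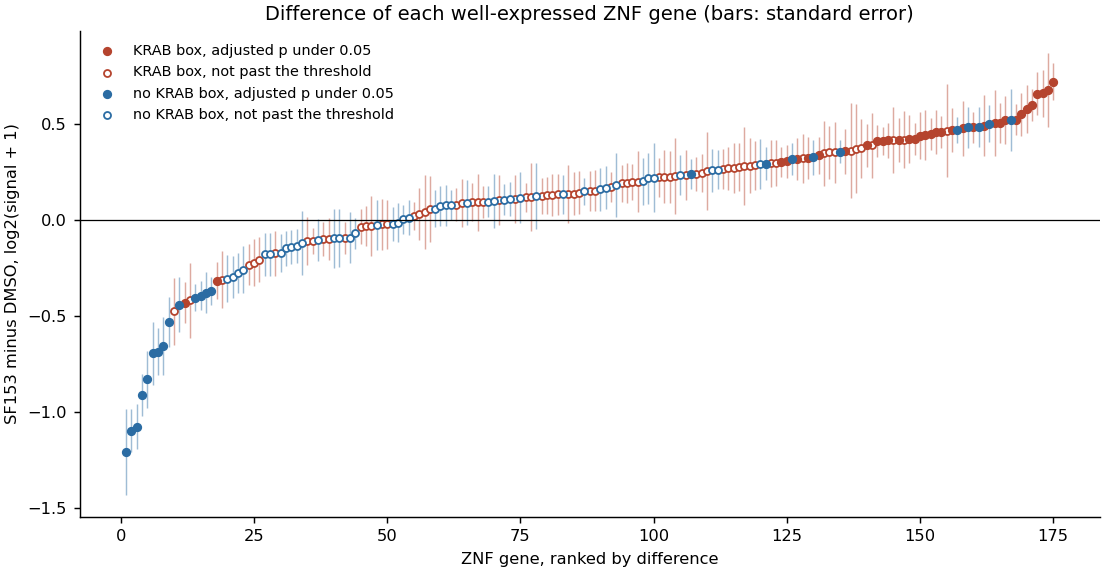
Log2 difference of each of the 175 ZNF genes (SF153 minus DMSO, log2(signal + 1)), ranked, with its standard error; red marks genes that encode a KRAB box and filled points passed the test. The low end, down to -1.20, holds genes without a KRAB box, and the 8 highest points, up to 0.72, all carry one.

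A KRAB box was found in 107 of the 175 genes, and these made up most of the increases. Of the 107, 33 (30.8%) were higher, 2 (1.87%) were lower and 72 did not pass the test, with a median log2 difference of 0.26. Of the 68 genes without the box, 10 (14.7%) were higher, 14 (20.6%) were lower and 44 did not pass, with a median of 0.01. Over all genes tested 13.0% were higher and 24.3% lower, and over protein-coding genes with a mean of 10 or more 12.5% and 37.7%. The shares without the box lie near those of all genes tested, so they are no result about that class. The summed signal of the KRAB genes was 2490 to 2555 in the DMSO libraries and 2893 to 3094 in the SF153 libraries. That of the genes without the box was 2545 to 2565 and 2586 to 2704. Neither pair of ranges overlapped. The difference between the 2 classes was not tested.

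The 8 largest increases were all in KRAB genes. ZNF846 (chromosome 19, 9751993 to 9793180, minus strand) had a signal of 17.5, 15.8, 17.3 and 15.9 in the DMSO libraries and 24.7, 27.9, 27.6 and 32.1 in the SF153 libraries. All SF153 values lay above all DMSO values, and the log2 difference was 0.72 ± 0.10 (SE) with an adjusted p of 0.00039. ZNF274 (chromosome 19, 58183029 to 58213562, plus strand) encodes a protein that recruits SETDB1 to the 3′ ends of zinc finger genes. Its signal was 8.98, 7.66, 8.16 and 8.82 in DMSO and 13.1, 17.3, 12.3 and 13.2 in SF153, again without overlap, and it is a member only through its SF153 values. It rose by 0.66 ± 0.12 on the log2 scale (adjusted p = 0.0025), with SF153 1.2 well above the other 3 treated libraries.

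ZNF605 (chromosome 12, 132918308 to 132956306) gave 14.7, 14.8, 16.4 and 13.1 in DMSO and 20.9, 25.7, 21.5 and 27.4 in SF153, a log2 difference of 0.66 ± 0.11 (adjusted p = 0.0016). ZNF589, a KRAB zinc finger gene first described in haematopoietic stem cells (chromosome 3, 48241100 to 48299253), had 18.4, 20.2, 21.9 and 20.9 in DMSO against 32.2, 29.6, 31.1 and 32.3 in SF153. The 4 treated libraries of ZNF589 were tight, and the log2 difference of 0.60 ± 0.08 had an adjusted p of 0.00043. ZNF44 and ZNF548 on chromosome 19 also rose without overlap, by 0.58 ± 0.12 and 0.55 ± 0.11 on the log2 scale. ZNF460 stood at a higher level, with 59.6, 58.1, 65.6 and 55.5 in DMSO and 78.3, 84.4, 91.3 and 90.3 in SF153. Its log2 difference was 0.52 ± 0.08 (adjusted p = 0.0008), and the groups did not overlap.

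ZNF577 was the exception among these 8, because its groups overlapped. It had 9.28, 11.0, 19.0 and 13.6 in DMSO and 23.5, 21.5, 21.4 and 18.0 in SF153. The log2 difference was 1.08 within batch 1 and 0.27 within batch 2, and 0.68 ± 0.19 over both (adjusted p = 0.02). The call was lost without DMSO 1.2 (0.61, adjusted p = 0.056) and without SF153 1.1 (0.63, adjusted p = 0.052).

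**Figure D2:**
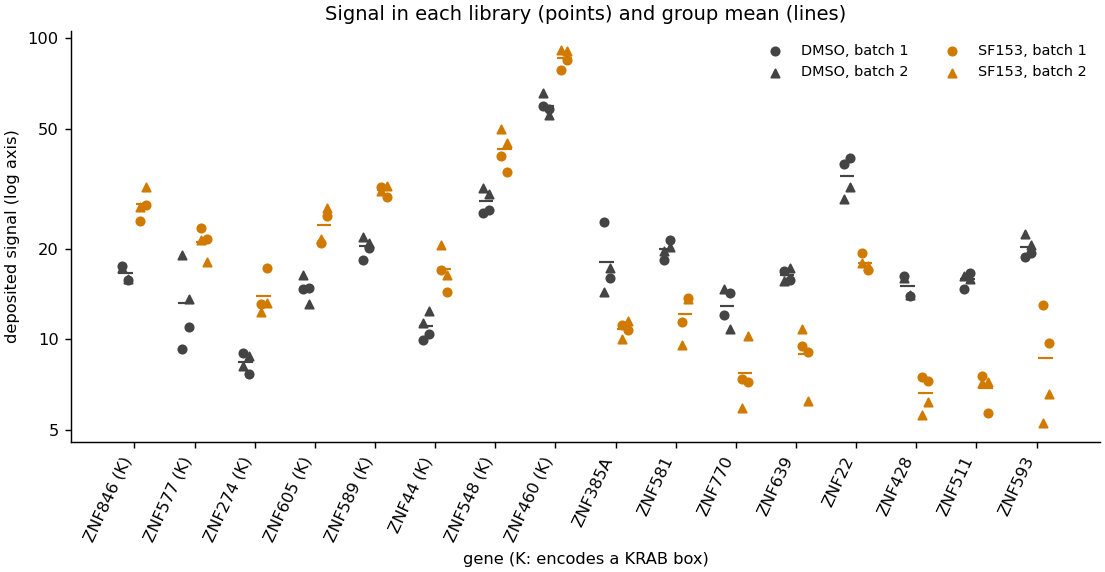
Deposited signal (log axis) of the 8 ZNF genes with the largest increase and the 8 with the largest decrease, in each library, with group means as lines; circles are batch 1 and triangles batch 2. ZNF846 runs from 15.8 to 17.5 in DMSO and from 24.7 to 32.1 in SF153, and ZNF511 from 14.7 to 16.6 and from 5.70 to 7.55.

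The KRAB genes that fell were ZNF92 and ZNF184. ZNF92 on chromosome 7 had a signal of 16.1 ± 1.24 in DMSO and 11.7 ± 1.32 in SF153 (SD, n = 4 each), and ZNF184 on chromosome 6 had 11.1, 10.8, 11.7 and 12.3 against 8.43, 9.23, 9.34 and 9.13. Their log2 differences were -0.43 and -0.32 (adjusted p = 0.01 and 0.027). Every SF153 library was below every DMSO library in both. No KRAB gene was called lower after quantile normalization, with the trend on length and signal removed, or with mitochondrial and small RNA genes left out. ZNF224, a KRAB repressor of the aldolase A gene, was higher, at 43.4, 51.5, 40.9 and 36.1 in DMSO and 62.9, 57.3, 62.8 and 61.2 in SF153 (log2 difference 0.51 ± 0.10, adjusted p = 0.0042). ZNF224 was picked here after its values were seen, as were ZNF92, ZNF10, ZNF83, ZNF417, ZNF587, ZNF692, ZNF749, ZNF766 and the noncoding genes below.

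Chromosome 19 held 71 of the 175 genes, 58 of them with a KRAB box. Of those 58, 22 (37.9%) were higher and none was lower. Of the 49 KRAB genes on other chromosomes 11 (22.4%) were higher and 2 (4.08%) lower. The medians were 0.26 and 0.24. The 13 genes of chromosome 19 without the box had 1 (7.69%) higher and 4 (30.8%) lower. Over all 107 KRAB genes 30.8% were higher and 1.87% lower, and over all genes tested 13.0% and 24.3%. No cluster below was tested against these shares. Grouping genes whose neighbours lay within 1 Mb, the largest cluster spanned 57280051 to 58418327 on chromosome 19, from ZNF460 to ZNF584. It held 14 genes, all with a KRAB box, of which 8 were higher and none lower. Their differences ran from -0.31 in ZNF749, which did not pass the test, to 0.66 in ZNF274, with a median of 0.35. Another group of 9 genes, from ZNF175 to ZNF160 at 51571298 to 53103436, had 4 higher and none lower, and ran from -0.42 in ZNF766 (not called) to 0.68 in ZNF577. In the 8 genes from ZNF85 to ZNF100 at 20923222 to 21767628, 2 were higher and 1, ZNF714, was lower. Near the end of chromosome 12, 6 KRAB genes from ZNF605 to ZNF268 at 132918308 to 133214831 had 2 higher, 0 lower and a median of 0.29. That cluster includes ZNF10, whose KRAB box is the repressor module of many engineered silencers, with 11.6, 11.2, 9.17 and 11.9 in DMSO and 10.1, 14.0, 13.8 and 14.2 in SF153. The groups overlapped for ZNF10 and it did not pass (log2 difference 0.22, 95% interval -0.08 to 0.52).

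Some cluster members are near copies of each other, and the way reads were divided between them was not stated in the sources used here. For 9 genes, more than 20% of the 31-base words of their transcripts also occur in another ZNF gene. ZNF417 shared 49.8% of its words, mainly with ZNF587, and ZNF587 shared 27.2%. ZNF587 had 61.2, 54.7, 68.3 and 59.0 in DMSO and 83.9, 81.0, 89.6 and 86.3 in SF153, and ZNF417 had 19.2, 21.4, 19.2 and 24.2 against 29.1, 24.7, 33.1 and 29.9. Both rose (0.48 and 0.46 on the log2 scale, adjusted p = 0.0013 and 0.01), but their separate values are uncertain. Among the 150 genes that shared under 10%, 37 were higher and 14 lower with a median of 0.15.

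Of the 16 decreases 14 were in genes without a KRAB box, as were the 8 largest, of which ZNF593, ZNF511, ZNF428, ZNF639 and ZNF770 were members only through their DMSO values. These 14 are 20.6% of the genes without the box, where 24.3% of all genes tested were lower. ZNF593 (chromosome 1, 26169871 to 26170873) is the human relative of a yeast factor for export of the large ribosomal subunit. It had a signal of 18.7, 19.4, 22.3 and 20.6 in DMSO and 13.0, 9.74, 5.27 and 6.60 in SF153. No SF153 value reached the lowest DMSO value, and the 2 batch 2 values were the lowest of all. The log2 difference was -1.20 ± 0.22 (adjusted p = 0.0024), -0.71 within batch 1 and -1.70 within batch 2.

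ZNF511 (chromosome 10, 133308475 to 133313162) had 14.7, 16.6, 16.2 and 15.9 in DMSO and 7.55, 5.70, 7.16 and 7.24 in SF153, a log2 difference of -1.10 ± 0.11 (adjusted p = 8.9e-05). ZNF428 (chromosome 19, 43607219 to 43619874) gave 16.2, 14.0, 16.0 and 14.0 against 7.47, 7.26, 5.62 and 6.17 (-1.08 ± 0.12, adjusted p = 0.00014). Both genes were separated in each batch. ZNF22 (chromosome 10, 45000475 to 45005326), a small gene of 5 fingers, had 38.2, 40.1, 29.2 and 32.1 against 19.4, 17.1, 17.9 and 17.5 (-0.91 ± 0.11, adjusted p = 0.00022). The treated ZNF22 libraries were tight while the DMSO libraries of batch 1 were above those of batch 2. ZNF639, ZNF770 and ZNF581 fell by 0.83, 0.69 and 0.68 on the log2 scale, each without overlap between the groups, though ZNF770 did not pass with mitochondrial and small RNA genes left out (-0.40, adjusted p = 0.083). ZNF593, ZNF511 and ZNF428 have exons that lie on an exon of a protein-coding gene of the opposite strand, with TUBGCP2 for ZNF511 and SRRM5 for ZNF428. The library preparation kept strand, but no source used here says whether counting used it, so reads of such pairs cannot be told apart with certainty. Over the 175 genes, 17 have such an overlap. A further kind, an exon on a protein-coding exon of the same strand, occurs in 24, where strand cannot separate the reads. Among them are ZNF511, with ZNF511-PRAP1, and the genes ZNF548, ZNF655, ZNF587 and ZNF417, which rose.

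A list of 11 ZNF genes with roles in RNA binding, ribosomes or the spindle had no member that rose and 4 that fell. The share that fell, 36.4%, is close to the 37.7% of protein-coding genes with a mean of 10 or more, so it is no result about the list. The 4 were ZNF593, ZNF385A, ZNF622 and ZNF598. ZNF385A, which binds RNA and modulates the choice of p53 targets, had 24.5, 16.0, 14.3 and 17.2 in DMSO and 11.2, 10.7, 10.0 and 11.5 in SF153 (log2 difference -0.66 ± 0.15, adjusted p = 0.0077). ZNF622, a maturation factor of the large ribosomal subunit, had 14.5, 15.8, 14.6 and 15.4 against 11.1, 12.3, 9.68 and 7.89 (-0.53 ± 0.13, adjusted p = 0.011). Neither gene overlapped between groups. ZNF598, the ubiquitin ligase that senses collided ribosomes, fell from 37.7 ± 2.18 to 28.9 ± 0.909 (SD, n = 4 each), a log2 difference of -0.37. The other 7 did not pass, and the list's median was -0.13. The sign of that median depends on scaling: it was 0.20 with mitochondrial and small RNA genes left out, 0.06 after quantile normalization and 0.02 with the trend on length and signal removed. The median of all genes tested moved too, from -0.03 as deposited to 0.28, 0.06 and 0.07 in the same order. The list's median did not rise above it. In the first of these settings ZNF385A, ZNF622 and ZNF598 did not pass, at -0.35, -0.22 and -0.04 (adjusted p = 0.080, 0.17 and 0.69). ZNF598 also did not pass after quantile normalization (-0.18, adjusted p = 0.079), nor ZNF622 with the trend removed (-0.26, adjusted p = 0.11).

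The members of this list with the highest level kept close to it. ZNF207, which loads the checkpoint protein BUB3 onto kinetochores, had the highest mean signal of all 175, with 212, 239, 233 and 214 in DMSO and 266, 241, 233 and 256 in SF153. Its log2 difference was 0.15 with a 95% interval of -0.01 to 0.31. ZNF638, a nuclear protein that binds nucleic acids and is linked to silencing of unintegrated retroviral DNA, had 239, 206, 214 and 226 against 202, 217, 238 and 230 (0.00, interval -0.17 to 0.17). The groups overlapped for both, and neither passed the test. ZNF207 was called higher under all 4 scaling settings given below, at 0.22 to 0.70, and ZNF638 under 3 of them, at 0.35 to 0.61.

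Next in level came ZNF655, ZNF124, ZNF117 and ZNF107. ZNF655, whose product binds the signalling protein VAV1, rose from 124, 132, 135 and 133 to 160, 171, 173 and 169 (log2 difference 0.36 ± 0.06, adjusted p = 0.0015). ZNF117 rose from 78.1, 79.3, 71.9 and 76.8 to 100.4, 101.8, 110.7 and 112.03 (0.47 ± 0.07, adjusted p = 0.00061), and its exons overlap those of ERV3-1 on the same strand. In both genes the groups were apart. ZNF124 had 104, 95.3, 91.5 and 96.2 in DMSO and 85.3, 88.3, 94.3 and 90.6 in SF153, with a difference of -0.11 (interval -0.26 to 0.04). ZNF107 had 85.0, 95.6, 86.7 and 85.3 against 86.9, 84.2, 105 and 98.2, with a difference of 0.08 (interval -0.11 to 0.27). Neither ZNF124 nor ZNF107 passed, and ZNF124 was above 0 under 2 other settings, at 0.79 with the length and signal trend removed and at 0.23 with mitochondrial and small RNA genes left out.

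Of a list of 29 ZNF genes known as promoter, enhancer or complex factors, 20 were among the 175, and 4 (20%) rose while 2 (10%) fell, against 24.6% and 9.14% of all 175 and 12.5% and 37.7% of protein-coding genes with a mean of 10 or more. ZNF274 is described above. ZNF276 had 67.6, 67.3, 91.5 and 74.2 in DMSO and 103, 94.4, 111.8 and 109.6 in SF153, without overlap (log2 difference 0.48 ± 0.11, adjusted p = 0.0063). ZNF276 shares exon bases with FANCA on the opposite strand. ZNF76, a relative of the promoter factor ZNF143, and ZNF292 rose by 0.29 and 0.24 on the log2 scale. ZNF644, a partner of the histone methyltransferases G9a and GLP, fell from 75.8, 76.9, 71.9 and 69.7 to 54.2, 55.0, 52.3 and 60.0 (-0.40 ± 0.07, adjusted p = 0.0017). ZNF592, part of a complex with ZMYND8, fell from 23.0, 22.1, 21.1 and 21.7 to 16.2, 16.5, 17.1 and 16.2 (-0.39 ± 0.08, adjusted p = 0.003). Both decreases were without overlap, but with mitochondrial and small RNA genes left out they were -0.07 each and did not pass. Of the genes without a KRAB box outside these lists, ZNF692 and ZNF83 were among the higher, at 63.9 ± 6.80 against 90.7 ± 8.60 and 71.0 ± 5.09 against 100.3 ± 13.9 (SD, n = 4 each).

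The calls were also counted by number of fingers. Of 80 genes with over 10 fingers, 26 (32.5%) were higher and 4 (5%) lower. Of 53 with 6 to 10, 13 (24.5%) and 4 (7.55%) were, and of 42 with 5 or fewer, 4 (9.52%) and 8 (19%). Most genes with few fingers lack a KRAB box, and among 34 such genes 2 (5.88%) were higher and 8 (23.5%) lower. The 34 genes without the box that have 6 or more fingers had 8 (23.5%) and 6 (17.6%). Over all genes tested, 13.0% were higher and 24.3% lower, and over protein-coding genes with a mean of 10 or more, 12.5% and 37.7%. The shares of decreases in each finger class lie under both backgrounds. Across the 107 KRAB genes the difference had a Spearman correlation of -0.05 with the number of fingers, and across the 68 without the box 0.26. These are descriptions across genes, which share libraries.

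Genes with short transcripts were often lower throughout the data. Among protein-coding genes with a mean signal of 10 or more, 60.6% of the 1668 whose longest transcript is under 2000 bases were lower and 7.01% higher, against 24.7% and 15.1% of the 2518 with 4500 bases or more. The Spearman correlation of difference and length was 0.31 across 7624 such genes and 0.01 across the 175 ZNF genes. Only 8 ZNF genes have a longest transcript under 2000 bases, of which 4 were lower, ZNF593, ZNF428, ZNF581 and ZNF622. Their longest transcripts have 698, 1412, 1324 and 1699 bases. In the KRAB class the medians were 0.30 at 2000 to under 3000 bases, 0.23 at 3000 to under 4500 and 0.27 at 4500 or more, where all protein-coding genes at that level had -0.18, -0.13 and -0.05.

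**Figure D3:**
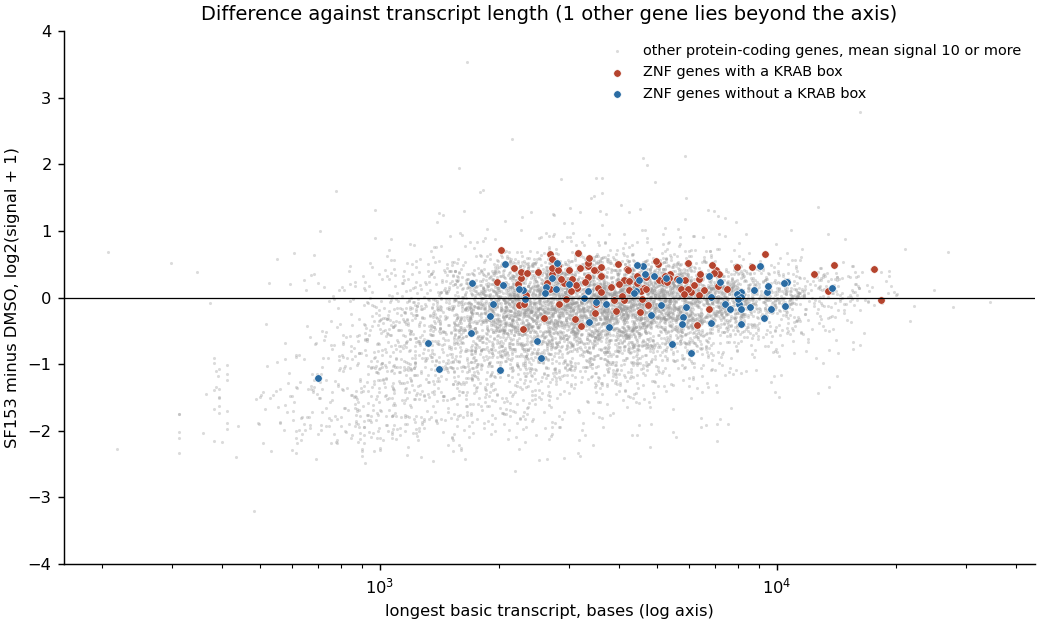
Log2 difference of each protein-coding gene with a mean signal of 10 or more (grey) and of the ZNF genes with (red) and without (blue) a KRAB box, against the longest transcript in bases on a log axis. ZNF593, at 698 bases and -1.20, is the leftmost ZNF gene, and most red points lie above 0 at every length.

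Most differences had the same direction in both batches. In 134 of the 175 genes the difference had the same sign in batch 1 and batch 2. The same held for 12044 of the 15542 genes tested and 6338 of the 7643 protein-coding genes with a mean of 10 or more. The count is therefore no result about the ZNF genes. All 59 genes that passed the test also had the same sign, but they were called on both batches together, which favours such agreement. The median over KRAB genes was 0.22 in batch 1 and 0.26 in batch 2, and over genes without the box -0.01 and 0.03. In the test of treatment by batch, 1.15% of all genes tested passed and 0 of the 175 did (limma, adjusted p under 0.05), while 19 of the 175 had an unadjusted p under 0.05. The lowest adjusted p belonged to ZNF81, which had 5.68, 6.76, 12.4 and 13.6 in DMSO and 11.5, 14.4, 12.9 and 12.7 in SF153. Its difference was 0.95 in batch 1 and -0.02 in batch 2, and the adjusted p of the interaction was 0.15. ZNF431 was higher over both batches at 0.49 (adjusted p = 0.035), with 0.16 in batch 1 and 0.82 in batch 2, and the call was lost without DMSO 1.2, DMSO 2.1, DMSO 2.2, SF153 2.1 or SF153 2.2, at 0.37 to 0.50. ZNF429 ran the other way, with 0.58 in batch 1 and -0.18 in batch 2, and did not pass over both.

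**Figure D4:**
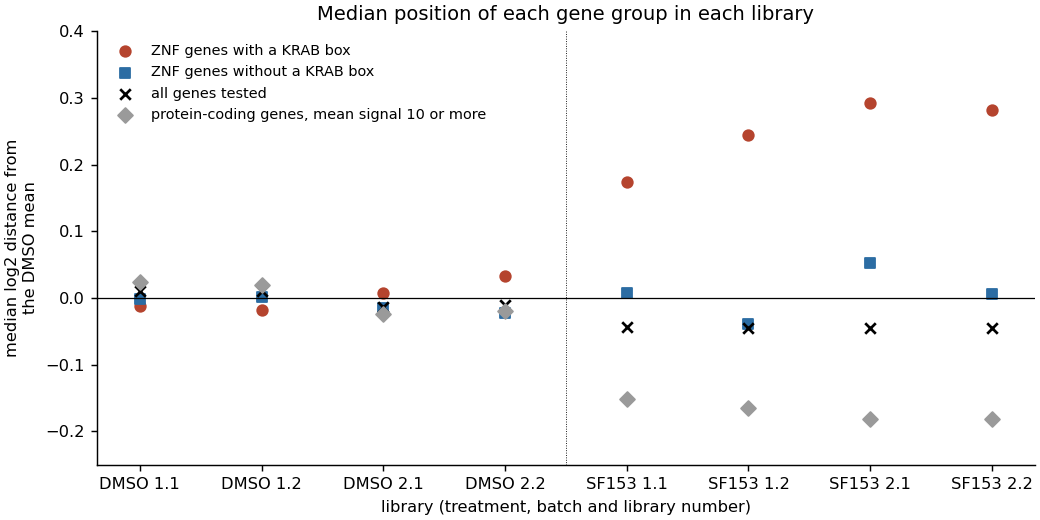
Median log2 distance from the DMSO mean in each library, for ZNF genes with and without a KRAB box, all genes tested and protein-coding genes with a mean signal of 10 or more. In the 4 SF153 libraries the KRAB genes sit between 0.17 and 0.29, the other ZNF genes between -0.04 and 0.05 and the protein-coding genes between -0.18 and -0.15.

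How the libraries are scaled moved the counts more than any single library did. With mitochondrial and small RNA genes taken out and the rest rescaled, 125 of the 175 genes were higher and 6 lower, in place of 43 and 16, and the KRAB genes had 87 higher and 0 lower. That setting raised the median of all genes tested by 0.31, to 0.28. Quantile normalization gave 89 higher and 10 lower, removal of the trend on length and signal 88 and 11, and median-of-ratios scaling 59 and 14. The shares of all genes called in each setting are not given here, so these counts cannot be read as particular to the ZNF genes. All 43 genes called higher passed the test again under these 4 settings, whereas 6, 10, 11 and 14 of the 16 called lower did. In the same order, the settings raised the median of all genes tested by 0.31, 0.10, 0.11 and 0.06. Such a shift favours increases and weakens decreases, so this contrast is no support for the increases. Relative to the median of all genes, the KRAB median was 0.29 as deposited and 0.32, 0.37, 0.35 and 0.29 in the order just given, and the median of the ZNF genes without the box was 0.04 and 0.07, 0.16, 0.07 and 0.05.

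**Figure D5:**
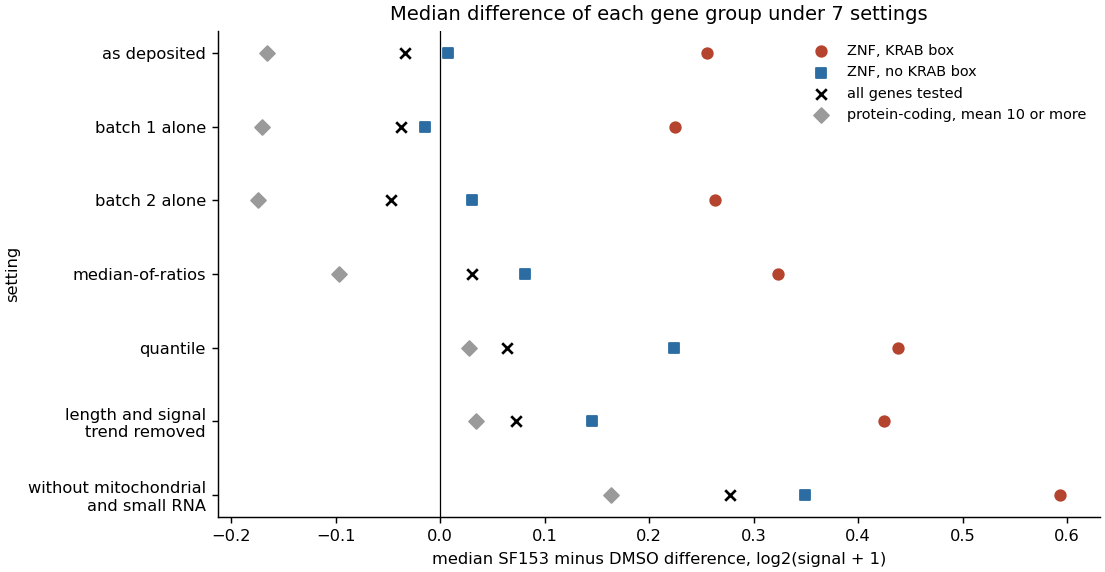
Median log2 difference (SF153 minus DMSO) of ZNF genes with and without a KRAB box, all genes tested and protein-coding genes with a mean signal of 10 or more, under 7 settings. The KRAB median lies to the right of the other 3 in each setting, from 0.22 in batch 1 alone to 0.59 with mitochondrial and small RNA genes left out.

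The genes through which KRAB proteins act were mostly lower or did not pass. Of 44 corepressor and silencing genes, 3 (6.82%) were higher and 21 (47.7%) lower, with a median log2 difference of -0.33. Protein-coding genes with a mean of 10 or more were also more often lower, with 12.5% higher, 37.7% lower and a median of -0.17. TRIM28 had 338, 341, 304 and 317 in DMSO and 227, 207, 171 and 184 in SF153, which do not overlap (log2 difference -0.72 ± 0.09, adjusted p = 0.00033). With the trend on length and signal removed, TRIM28 was at 0.18 and did not pass. SETDB1, the histone methyltransferase of the complex, had 41.5, 57.3, 51.0 and 55.7 against 46.8, 54.3, 57.8 and 58.8 and did not pass (0.09, 95% interval -0.17 to 0.35), except with mitochondrial and small RNA genes left out (0.43, adjusted p = 0.022).

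Among the genes that fell were SUMO2 and SUMO3, which encode small protein modifiers, and UHRF1, which keeps DNA methylation through replication. SUMO2 went from 96.4, 101, 105 and 80.3 to 28.7, 28.5, 10.8 and 10.2, with the 2 batch 2 libraries the lowest. Its log2 difference was -2.38 ± 0.32 (adjusted p = 0.00042), -1.75 in batch 1 and -3.01 in batch 2, and the interaction with batch passed the test (adjusted p = 0.02). UHRF1 fell from 92.6, 93.4, 97.2 and 94.9 to 24.1, 25.5, 18.9 and 19.3 (-2.07 ± 0.10, adjusted p = 4.4e-06). SUMO3 fell by 1.54 on the log2 scale. RESF1, a SETDB1 partner at retroelements, and MORC2 and MPHOSPH8, which act with the HUSH silencing complex, were the 3 that rose, by 0.71, 0.43 and 0.23. With mitochondrial and small RNA genes left out, the list had 16 higher and 12 lower with a median of 0.00. The median of all genes tested was 0.28 in that setting and -0.03 as deposited. The list's counts and median thus depend on scaling, but its median lay below that of all genes in both.

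Genes with other zinc finger symbols at the same mean signal are given as counts only, and no difference between groups was tested. The groups were formed by symbol and not by protein domain, so a group is not always a family. The ZBTB group includes ZBTB8OS, and the lower ZFP genes were ZFP36L2, ZFP91 and ZFP36. Of 16 ZBTB genes 2 were higher and 4 lower, of 11 ZSCAN and ZKSCAN genes 2 and 0, of 7 ZFP genes 0 and 3, of 8 KLF and SP genes 2 and 1, of 13 ZC3H genes 0 and 3, and of 4 PRDM genes 0 and 0. Over all protein-coding genes with a mean of 10 or more, 12.5% were higher and 37.7% lower. Among ZNF genes with a mean below 10, 202 were tested, of which 15 (7.43%) were higher and 14 (6.93%) lower with a median of 0.04. The 136 of them with a KRAB box had 11 (8.09%) higher and 1 (0.735%) lower, and the 66 without it had 4 (6.06%) and 13 (19.7%). Each of these shares lies under that of all genes tested, at 13.0% higher and 24.3% lower. Just inside the mean of 10 lay ZNF770, ZNF230, ZNF773 and ZNF184, with group means of 13.0, 9.12, 9.90 and 11.5 in DMSO and 7.71, 11.2, 10.5 and 9.03 in SF153. Just outside lay ZNF197, ZNF687, ZNF79 and ZNF671, with 9.43, 11.2, 9.77 and 9.25 in DMSO and 10.4, 8.54, 9.98 and 10.5 in SF153.

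Noncoding genes named for one of the 175 were tested in 11 cases, of which 3 rose and 0 fell. Over all genes tested, 13.0% rose and 24.3% fell. ZNF529-AS1 had 9.94 ± 0.994 in DMSO and 13.2 ± 0.428 in SF153 (SD, n = 4 each) and rose by 0.38 on the log2 scale (adjusted p = 0.014), and ZNF496-DT and ZNF584-DT rose by 0.33 and 0.50 (adjusted p = 0.029 and 0.036). ZNF529 itself did not pass (0.32, adjusted p = 0.075). ZNF22-AS1 had 1.52 ± 0.406 and 0.695 ± 0.133, a difference of -0.56 that did not pass (adjusted p = 0.059), beside the fall of ZNF22.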

How the data were processed

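Gene signals were taken from 4 tables, each holding 2 libraries of 1 treatment and batch. The authors deposited a signal per gene, under file labels that say CPM as well as TPM. Column sums differ between libraries, as they would not in plain TPM or CPM, and what further scaling was applied or whether the 4 tables were scaled together was not stated in the sources used here. Per the submitters' processing notes, the build was GRCh38 and the tools included STAR, Salmon, edgeR and CASAVA 1.8.2, whose roles are not stated. The design had assumed TPM, and the same test was applied. Of the 8 column names, 4 were spelled differently from the labels and were matched by number, letter, index pair and sample number. Column sums ran from 828381 to 1027119, read totals are unknown, and no counting interval is given.

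R 4.3.3 with limma 3.58.1 was used to test differences of log2(signal + 1), which understates changes of low genes, with a variance trend. The fit covered the 15542 genes with a mean signal of 1 or more, set the 4 SF153 libraries against the 4 DMSO libraries with no term for batch, was two-sided, and called genes at a Benjamini-Hochberg adjusted p under 0.05 with no fold threshold. It was tested on simulated data first. Interactions with batch came from a fit with treatment, batch and their product. The replicate numbers share the labelled batch, so samples are paired by batch. The batch 1 minus batch 2 difference had a Pearson r of 0.07 across genes between treatments, and library deviations within a batch had a mean r of 0.03 (-0.00 to 0.06). Alternatives covered scaling, pseudocount, filters, the variance trend, batches, left-out libraries, averaging within batch and the mean that defines the gene set.

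Positions, transcript lengths and protein features came from GENCODE release 29 on GRCh38, which matched all 175 genes. Length is the longest basic transcript. Fingers were counted by the spacing of 2 to 4, 12 and 3 to 5 residues between the cysteines and histidines of a C2H2 finger, and the KRAB box was found with a HMMER 3.4 profile built from 196 seed sequences (E-value below 1e-05). Promoters are from RefSeq on GRCh38.p14.

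The gene set and the lists were chosen with earlier results of these data known. Genes named in full are the 8 with the largest increase and the 8 with the largest decrease among those called, the 6 with the highest mean signal, the 4 nearest each side of the mean of 10, the 4 with the lowest interaction p, up to 4 called genes of each list, and TRIM28 and SETDB1 in any case. Other names were picked after their values were seen. Some listed genes are not reported here.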

Additional observations from a re-analysis of the deposited data

Results flagged for a closer look

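Among the named ZNF and corepressor genes, 72 groups of 4 libraries were examined for a library far from the other 3, and 3 groups had one, where chance gives about 1 in 20. ZNF274 in SF153 had 17.3 in SF153 1.2 and 12.3 to 13.2 in the other 3 libraries, a gap of 0.829 of the group's range. Without that library ZNF274 still passed the test. ZNF107 in DMSO had 95.6 in DMSO 1.2 and 85.0 to 86.7 in the others (0.840 of the range), and it did not pass with or without that library. ZNF598 in SF153 had 27.6 in SF153 2.2 and 29.2 to 29.5 in the others (0.841 of the range), and its decrease passed without that library as well.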

How the results depend on the processing

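All 43 genes called higher stayed above 0 and all 16 called lower stayed below 0 under each of the 21 alternatives run on the fit, while the counts moved. With the batch as a replicate block, which uses the pairing of samples by batch, 46 were higher and 17 lower, and it changed no call of a named gene. Batch 1 alone gave 21 higher and 9 lower, batch 2 alone 18 and 7, and libraries averaged by treatment and batch 18 and 9, each with fewer samples. Removing the trend on length and signal gave 88 higher and a median log2 difference of 0.34, quantile normalization 89 higher, 10 lower and 0.34, and leaving out mitochondrial and small RNA genes 125 higher, 6 lower and 0.49. The shares of all genes called under these settings are not given here. Median-of-ratios scaling had a median of 0.22 and a pseudocount of 5 a median of 0.12. A gene set defined at a mean of 5 or more had a median of 0.12, and one at 20 or more had 5 lower and a median of 0.19. With one library left out, 32 to 41 were higher, 14 to 17 were lower and the median was 0.14 to 0.18. ZNF124 turned to 0.79 with the trend removed and to 0.23 without mitochondrial and small RNA genes, and TRIM28 to 0.18 with the trend removed; the cause was not tested. Read depth is unknown, and the number of libraries limits the precision.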

Other observations

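The 175 ZNF genes took 0.497% to 0.510% of the summed signal in the DMSO libraries and 0.542% to 0.697% in the SF153 libraries, with the 2 highest shares in batch 2, where mitochondrial genes took 16.8% in both SF153 libraries. Differences in batch 1 and batch 2, which have no library in common, had a Spearman correlation of 0.58 across the 175 genes, 0.33 across the 107 with a KRAB box, 0.81 across the 68 without one and 0.85 across 7624 protein-coding genes with a mean signal of 10 or more. These are descriptions across genes and carry no test. A SCAN motif, which pairs zinc finger proteins with each other, was found in 9 genes, of which 2 were higher, 0 were lower and 7 did not pass.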
